A study of Mus musculus with 6 samples.

Results

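The V-ATPase and the proteins of the lysosome were followed as 41 mouse genes, 16 for the proton pump and 25 for lysosomal membrane proteins and lumenal enzymes, in RNA from NIH-3T3 cells with and without a knock-out of pyruvate carboxylase. The genes were chosen by symbol, as known parts of the pump or of the lysosome, and found in the deposited table through GENCODE M21, which pairs its gene identifiers with symbols. Of these 41, 40 had a row among the 16540 genes of the table, and Ctsh is not analysed here. All 16 pump genes and 24 lysosomal genes were tested, and none was lost to the filter on low values. NIH-3T3 is an established line of mouse embryo fibroblasts (strain NIH/Swiss). The cells carried lentiviral Cas9 with R26 sg1 as control guide (n = 2 libraries), PC sg2 (n = 2) or PC sg5 (n = 2), the last 2 named after pyruvate carboxylase, whose gene is Pcx. Every group, controls included, was selected with 2 ug/mL puromycin, kept as an uncloned pool in which edited and unedited cells can be mixed, and held for 48 h in DMEM whose L-glutamine was set to 0.2 mM and whose serum was 10% FBS, dialyzed, before poly-A+ RNA was sequenced. Whether the 2 libraries with the same guide stem from separate cultures is not stated in the labels. The p-values then measure only how far these libraries spread, which may be technical.

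The V-ATPase is a rotary pump that spends ATP to move protons into lysosomes and other compartments. Its V1 sector, on the cytosolic side, splits ATP and turns a central stalk, and its membrane sector V0 carries the ring of proteolipids through which protons pass. Acid in the lumen activates hydrolases that reach the lysosome mostly by a mannose 6-phosphate tag, while a separate set of membrane proteins guards the membrane and exports lipids, ions and amino acids. In fibroblasts this compartment also breaks down collagen and proteoglycans that the cells take up. Many of these genes share a short promoter element, which the transcription factors TFEB, TFE3 and MITF bind.

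Sequencing depth, as reads recovered from the table, was highest in control replicate 2, at 71710049, and lowest in PC sg5 replicate 2, at 22895172, and 3 reads, the limit that a count of 0 allows, came to between 2.18 and 6.41 normalised counts per library, which covers counting error only. Values below are the authors' normalised counts, which are read counts divided by a size factor for each library. Pcx had 2914 and 3015 normalised counts under the control guide, 316 and 375 under PC sg2 and 713 and 716 under PC sg5, so it was lower in all 4 PC libraries, and lower with PC sg2 than with PC sg5 (log2 fold change of PC sg5 against PC sg2 1.05, limma Benjamini-Hochberg adjusted p = 6.60e-07). All 8 fibroblast markers were present and all 8 were lower in the PC libraries, with a summed level of 1224500 to 1274700 normalised counts under the control guide, against 510510 to 530790 under the PC guides. Of 12 macrophage and osteoclast markers, 5 had a row (Csf1r, Cd14, Lyz2, Mpeg1 and Cd74) and all 5 were lower, with sums of 1964.4 to 2070.3 against 1217.3 to 1281.7, and Ptprc, Adgre1, Itgam, Acp5, Ocstamp, Dcstamp and Calcr had none. The part of these shifts in the results below was not tested, and in bulk RNA fewer cells of a type and less RNA per cell cannot be told apart.

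Most genes of the pump rose, while RNA for the lysosomal proteins went both ways. With both PC guides against the control, 14 of 16 V-ATPase genes rose, 1 fell and 1 was not called, at a median log2 fold change of 0.46. Of the 24 lysosomal genes, 11 rose, 9 fell and 4 were not called, at a median of 0.058. A gene was called when its limma Benjamini-Hochberg adjusted p, over all 16526 genes tested, was under 0.05. Across all genes tested the same call took in 67.9%, made up of 34.3% higher and 33.6% lower, with a median log2 fold change of -0.0093, so that being called was in itself common. The share of V-ATPase genes that rose, 87.5%, compares with that 34.3%, whereas the lysosomal genes, at 45.8% higher and 37.5% lower, lay nearer to the whole table. Within the lysosomal genes, 4 of the 5 membrane proteins rose (median 0.50), while the 19 hydrolases and their cofactors split into 7 higher, 8 lower and 4 not called (median -0.00018). With quantile normalisation, which forces every library to the same distribution, 3 of the 9 lysosomal genes that fell lost the call, namely Lamp2, Psap and Ctsd.

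**Figure D1:**
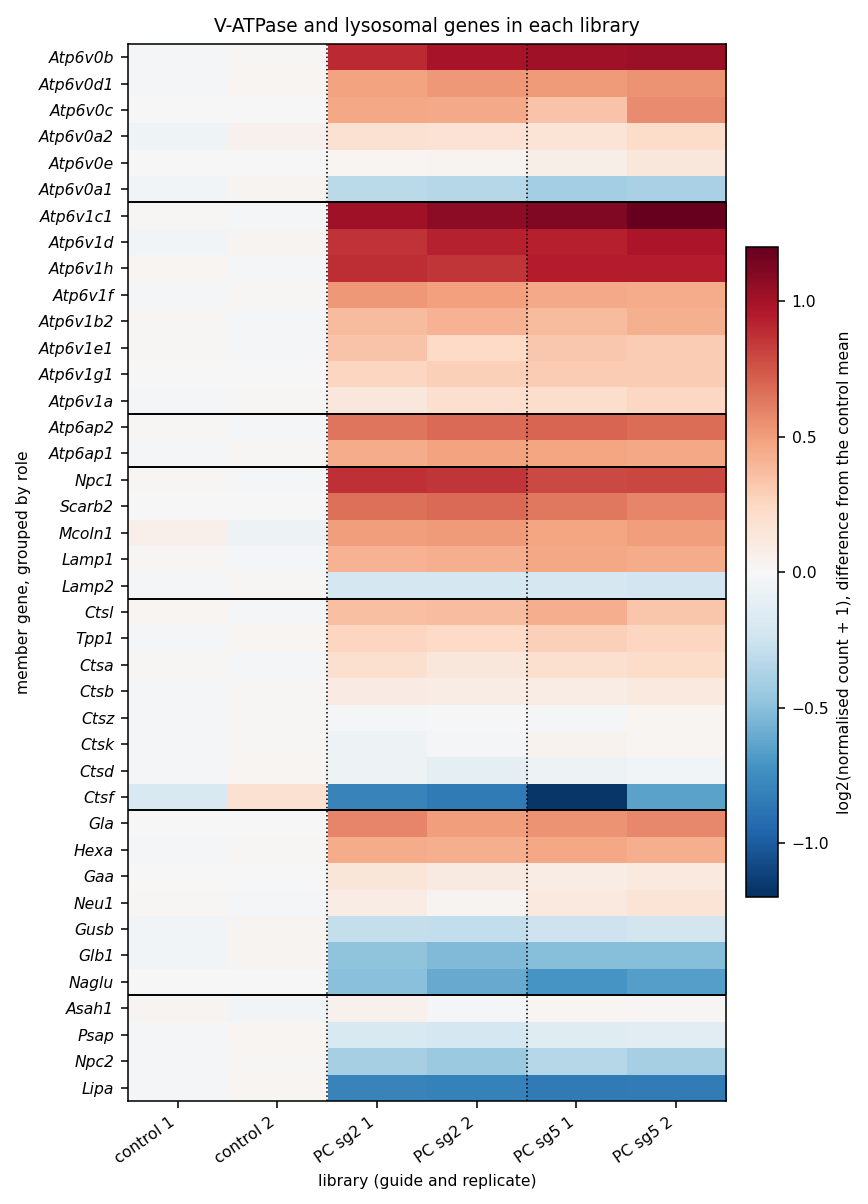
Each row is a gene and each column a library. Colour gives the log2(normalised count + 1) minus the mean of the 2 control libraries, with values past the ends of the bar in its end colours and genes grouped by role and ordered by fold change within a group. The V1 block is red in all 4 PC libraries, and the hydrolase blocks hold both colours.

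The gap was present in each PC library. Averaged over the 16 V-ATPase genes, the log2 difference from the control mean was 0.45 and 0.47 under PC sg2, and 0.47 and 0.51 under PC sg5, against -0.0080 and 0.0080 in the controls. For the 24 lysosomal genes that average was 0.037 and 0.013 under PC sg2, and 0.016 and 0.039 under PC sg5. The pump average therefore stood 0.41 to 0.47 above the lysosomal average in the 4 PC libraries. This is a description of chosen genes, which are not replicates, and no test was made over them. Counted by libraries, 15 V-ATPase genes had all 4 PC libraries above both controls and 1 had all 4 below. The lysosomal genes had 12 above, 9 below and 3 with overlapping groups. Over all genes tested, 36.6% had all 4 PC libraries above both controls and 36.6% had all 4 below.

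**Figure D2:**
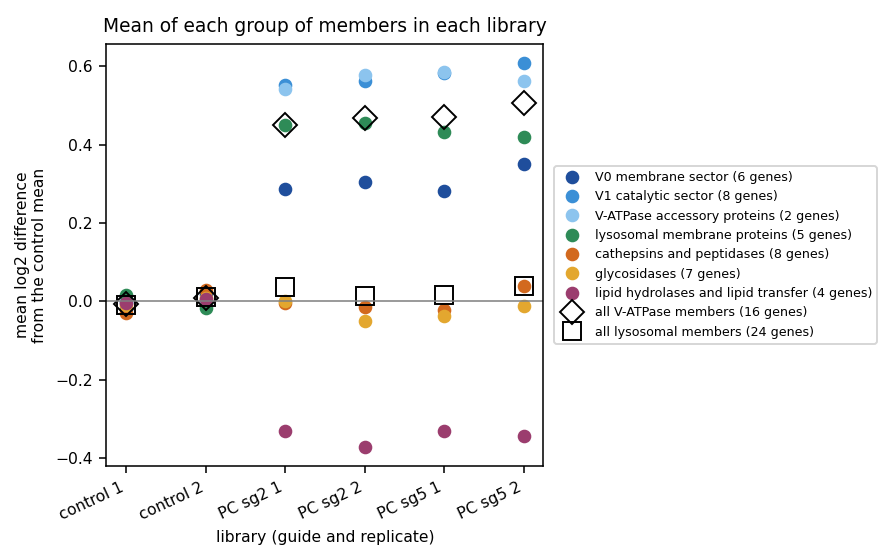
For each library (horizontal axis) the points give the mean, over the genes of a role, of the log2 difference from the control mean. Open diamonds are the 16 V-ATPase genes, at 0.45 to 0.51 in the PC libraries, and open squares are the 24 lysosomal genes, at 0.013 to 0.039. The lysosomal membrane proteins sit with the pump and the lipid hydrolases and lipid transfer proteins lie lowest.

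All 8 genes of the V1 sector rose, with log2 fold changes between 0.20 and 1.10 and a median of 0.44. The largest rise was in Atp6v1c1, subunit C, which helps to hold the V1 stalks to the membrane sector and is released when the pump comes apart. It had 4475 and 4408 normalised counts under the control guide, 9003 and 9365 under PC sg2 and 9599 and 10260.0 under PC sg5, a rise of 1.10 ± 0.033 (SE) on the log2 scale (adjusted p = 1.22e-17). All 4 PC libraries were well above both controls, and their mean was 2.15 times the control mean. The gene (ENSMUSG00000022295) lies on GRCm38 chromosome 15, 38661933 to 38692446, on the plus strand, and like all 40 genes it is annotated as protein coding. Atp6v1d, subunit D of the turning central stalk, went from 2347 and 2469.9 normalised counts under the control guide to 4386 and 4561 under PC sg2 and 4598 and 4741 under PC sg5, a log2 fold change of 0.92 ± 0.038 (SE). Atp6v1h, subunit H, which is known to keep free V1 from splitting ATP, went from 4314 and 4187 normalised counts under the control guide to 7864 and 7696 under PC sg2 and 8184 and 8189 under PC sg5, a log2 fold change of 0.91 ± 0.031 (SE). In neither gene did the groups overlap, and the PC libraries lay far closer to each other than to the controls.

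The genes of the catalytic pair had smaller fold changes than these. Atp6v1a, subunit A, which carries the ATP-splitting site, had 11462 and 11704 normalised counts under the control guide, 12688 and 13348 under PC sg2 and 13445 and 13785 under PC sg5, a log2 fold change of 0.20 ± 0.028 (SE). Atp6v1b2, subunit B, its partner in the hexamer, averaged 7183 ± 66.5 (SD, n = 2) normalised counts with R26 sg1 and 9489.5 ± 165 (SD, n = 4) over both PC guides, a log2 fold change of 0.40 ± 0.029 (SE). Atp6v1f, subunit F of the central stalk, averaged 3142 ± 38.6 (SD, n = 2) normalised counts with R26 sg1 and 4381 ± 101 (SD, n = 4) over both PC guides, a log2 fold change of 0.48 ± 0.035 (SE). Subunits E and G form the outer stalks that keep the hexamer from turning. Atp6v1e1, for subunit E, averaged 4248 ± 48.8 (SD, n = 2) normalised counts with R26 sg1 and 5247 ± 167 (SD, n = 4) over both PC guides, a log2 fold change of 0.30 ± 0.036 (SE). Atp6v1g1, for subunit G, averaged 5686 ± 14.4 (SD, n = 2) normalised counts with R26 sg1 and 6954 ± 95.8 (SD, n = 4) over both PC guides, a log2 fold change of 0.29 ± 0.030 (SE). In all 4 of these genes each PC library was above both controls. The 8 adjusted p-values of the V1 genes ran up to 1.49e-06 (limma, Benjamini-Hochberg).

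The V0 sector was less uniform, with 4 genes higher, 1 lower and 1 not called (median 0.32). Atp6v0b, a proteolipid of the proton-carrying ring, had 4223 and 4311 normalised counts under the control guide, 7934 and 8458 under PC sg2 and 8648 and 8749 under PC sg5, a log2 fold change of 0.98 ± 0.033 (SE). The mean of the PC libraries was 1.98 times that of the controls, and the groups did not overlap. Atp6v0b (ENSMUSG00000033379) lies on GRCm38 chromosome 4, 117884326 to 117887333, on the minus strand. Its exons share 11.85% of their length with another annotated gene, so reads there cannot be assigned with certainty. Atp6v0d1, subunit d, which joins the ring to the central stalk, went from 8181 and 8408 normalised counts under the control guide to 11562 and 11907 under PC sg2 and 11839 and 12086 under PC sg5, a log2 fold change of 0.51 ± 0.028 (SE). Atp6v0c, the main proteolipid of the ring, had 1446 and 1430.0 under the control guide, 1988 and 1971 under PC sg2 and 1822 and 2127 under PC sg5, a log2 fold change of 0.46 ± 0.056 (SE). A processed pseudogene of it, Atp6v0c-ps2, was listed at similar values, so the split of reads between the 2 is uncertain. Their sum was 2913 and 3031 under the control guide, against 3872 to 4172 in the PC libraries, a log2 ratio of 0.43.

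Subunits a and e of V0 can each be made from more than 1 gene. Atp6v0a1, a form of subunit a, which holds the channels by which protons enter and leave the ring, was the only V-ATPase gene of the 16 to fall. It had 4842 and 5089 normalised counts under the control guide, 3968 and 3917 under PC sg2 and 3739 and 3781 under PC sg5, a log2 fold change of -0.37 ± 0.036 (SE) (adjusted p = 7.33e-09). Atp6v0a2, another form of subunit a, rose by 0.19 ± 0.038 (SE), with 3704 and 3973 under the control guide, 4363 and 4338 under PC sg2 and 4300.3 and 4463 under PC sg5. Atp6v0e, subunit e, was not called with both guides, at 0.065 ± 0.037 (SE) (adjusted p = 0.121), and was just called with PC sg5 alone (adjusted p = 0.0441). Its 4 PC libraries, at 3757 and 3792 normalised counts under PC sg2 and 3872 and 4051 under PC sg5, nevertheless lay above the controls at 3686 and 3705. The difference was small beside that of its neighbours in the complex.

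Both accessory proteins rose. Atp6ap1, a glycoprotein that is built into V0 during its assembly, had 9451 and 9634 normalised counts under the control guide, 12982 and 13307 under PC sg2 and 13232 and 13124 under PC sg5, a log2 fold change of 0.46 ± 0.026 (SE). Atp6ap2, known also as the prorenin receptor, had 5504 and 5426 under the control guide, 8507 and 8739 under PC sg2 and 8872 and 8678 under PC sg5, a log2 fold change of 0.67 ± 0.030 (SE). In each, the 4 PC libraries differed less from one another than from either control.

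**Figure D3:**
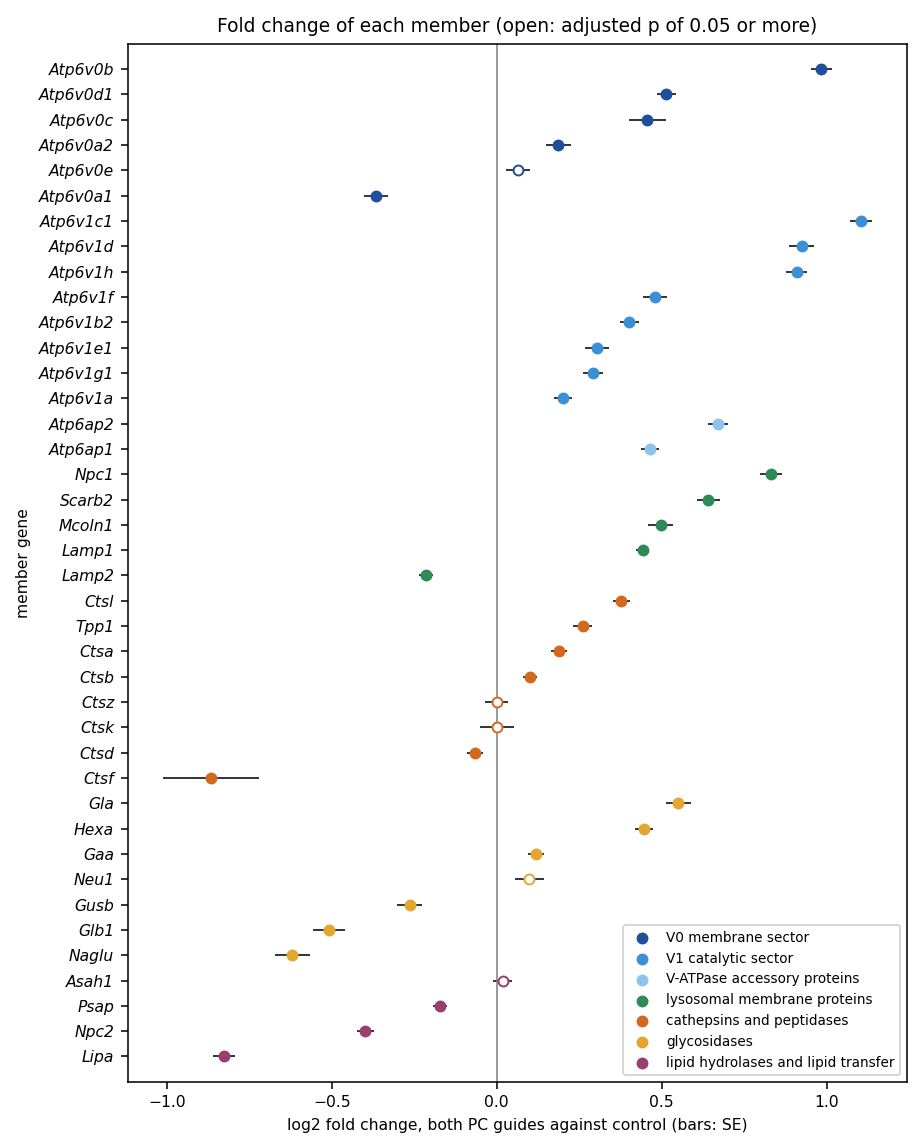
Points give the log2 fold change of both PC guides against control for the 40 genes, coloured by role, with bars for 1 standard error of the limma fit. Open points had an adjusted p of 0.05 or more. From Atp6v1c1 at 1.10 the V-ATPase genes lie to the right of 0 with the exception of Atp6v0a1, and the lowest points are Ctsf and Lipa.

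The change of forms within subunits a and e was followed with the genes for their other forms, per kb of merged exon. Merged exons join those of all annotated transcripts of a gene and can be longer than the RNA that is made. Shares and rankings between genes are therefore approximate. Subunit a has 4 genes. Tcirg1, the form best known from osteoclasts, gave the most RNA per kb in the controls and fell by 0.74 on the log2 scale, from 5591 and 5503 normalised counts to 3189.9 and 3362 under PC sg2 and 3254 and 3454 under PC sg5. Its share of the RNA per kb of all 4 forms went from 47.2% to 36.7% ± 0.88 (SD, n = 4), while that of Atp6v0a2 went from 22.3% to 33.1% ± 0.35 and that of Atp6v0a1 stood at 29.6% and 29.9% ± 0.88. The fourth form, Atp6v0a4, fell by 1.61 on the log2 scale but held under 1% throughout. The sum over the 4 forms went from 2556 to 1964 ± 32.4 normalised counts per kb, with each of the 4 PC libraries below both controls. Tcirg1 (ENSMUSG00000001750) lies on GRCm38 chromosome 19, 3896050 to 3907133, on the minus strand.

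For subunit e the sum per kb went from 1089 to 1360 ± 54.0 (SD, n = 4). Atp6v0e2 had 220.0 and 225 normalised counts under the control guide, 718 and 744 under PC sg2 and 747 and 823 under PC sg5, a log2 fold change of 1.76 ± 0.085 (SE). It gave 8.58% of the subunit e RNA per kb in the controls and 23.4% ± 0.49 (SD, n = 4) in the PC libraries, with Atp6v0e giving the rest. Atp6v1g2, a minor form of subunit G, fell by 0.41 on the log2 scale but held under 2% of that subunit's RNA per kb. Of the 9 further subunit genes listed, Tcirg1, Atp6v0a4, Atp6v0e2 and Atp6v1g2 had a row, 1 higher and 3 lower, and Atp6v0d2, Atp6v1b1, Atp6v1c2, Atp6v1e2 and Atp6v1g3 are not analysed here.

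**Figure D4:**
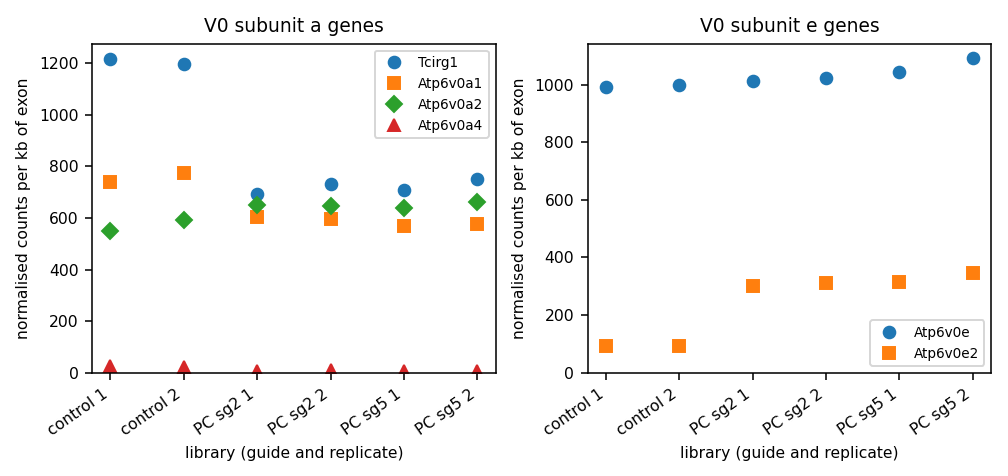
Vertical axes give normalised counts per kb of merged exon in each library (horizontal axis) for the genes of V0 subunit a (left) and subunit e (right). Tcirg1 is the highest of its family in both controls and lies close to Atp6v0a2 in the PC libraries, and Atp6v0e2 is more than 3 times its control level in every PC library.

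Among the lysosomal membrane proteins 4 rose and 1 fell. Npc1, which passes cholesterol out of the lysosome, had 3189 and 3123 normalised counts under the control guide, 5790.0 and 5722 under PC sg2 and 5475 and 5485 under PC sg5, the largest rise of the 24 lysosomal genes at a log2 fold change of 0.83 ± 0.034 (SE). Scarb2, the receptor that carries glucocerebrosidase to the lysosome, had 3514 and 3501 under the control guide, 5559 and 5619 under PC sg2 and 5445 and 5271 under PC sg5, a log2 fold change of 0.64 ± 0.034 (SE). Mcoln1, a calcium channel of the lysosomal membrane, went from 3575 and 3282 normalised counts under the control guide to 4853 and 4878 under PC sg2 and 4752 and 4859 under PC sg5, a log2 fold change of 0.50 ± 0.038 (SE). The groups were apart in all 3, although the 2 controls of Mcoln1 differed from each other more than the PC libraries did.

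The pair of abundant LAMP glycoproteins parted. Lamp1 rose from 43848 and 43081 normalised counts under the control guide to 58079 and 58966 under PC sg2 and 60101 and 59081 under PC sg5, a log2 fold change of 0.44 ± 0.020 (SE). Lamp2, which also serves in chaperone-mediated autophagy, went from 35769 and 36335 normalised counts under the control guide to 31133 and 31064 under PC sg2 and 31309 and 30716 under PC sg5, a log2 fold change of -0.22 ± 0.021 (SE) (adjusted p = 9.57e-09). With quantile normalisation the call on Lamp2 was lost at -0.031 (adjusted p = 0.167). Per kb, Lamp1 gave 81.2% of the RNA of this pair in the controls and 87.2% ± 0.16 (SD, n = 4) in the PC libraries. These shares rest on merged exon lengths of 2675 bases for Lamp1 and 9552 for Lamp2.

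The cathepsins and peptidases counted 4 genes higher, 2 lower and 2 not called. Ctsl, a broad cysteine protease, had 28352 and 27484 normalised counts under the control guide, 35929.9 and 36018 under PC sg2 and 37845 and 35258 under PC sg5, a log2 fold change of 0.38 ± 0.026 (SE). Tpp1, which takes tripeptides off the ends of proteins, rose by 0.26 ± 0.028 (SE). It averaged 9128 ± 199 (SD, n = 2) normalised counts under the control guide and 10931 ± 153 (SD, n = 4) under the PC guides. Ctsa, which shields the enzymes made from Neu1 and Glb1 in a complex, rose by 0.19 ± 0.024 (SE). It averaged 19351 ± 279 (SD, n = 2) normalised counts under the control guide and 22054 ± 532 (SD, n = 4) under the PC guides. Ctsb, another cysteine protease, rose by 0.10 ± 0.022 (SE). It averaged 26556 ± 314 (SD, n = 2) normalised counts under the control guide and 28474 ± 253 (SD, n = 4) under the PC guides. Ctsa and Ctsb came out at 0.30 and 0.26 with quantile normalisation, and the call on Ctsb was lost without an intensity trend in the model (adjusted p = 0.0517). Of the annotated exon length, 26.9% for Ctsl, 17.4% for Ctsa and 12.8% for Ctsb is shared with other genes.

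Ctsf stood at the other end of the cysteine proteases, and of all 40 genes. It had 333 and 430.0 normalised counts under the control guide, 217 and 209 under PC sg2 and 168 and 242 under PC sg5, a log2 fold change of -0.87 ± 0.15 (SE) (adjusted p = 1.86e-05). Ctsf (ENSMUSG00000083282) lies on GRCm38 chromosome 19, 4855130 to 4860918, on the plus strand. The groups did not overlap, but this was the least abundant gene of the set and its standard error the widest. Ctsd, the main aspartic protease of the lysosome, had 17192 and 17753 under the control guide, 16702 and 16220.0 under PC sg2 and 16776 and 17074 under PC sg5, a log2 fold change of -0.066 ± 0.025 (SE) that was called by a narrow margin (adjusted p = 0.0266). With quantile normalisation the value was 0.024 (adjusted p = 0.393). The call was also lost with scaling that left out the 50 most abundant genes (-0.021), without an intensity trend (adjusted p = 0.183), and without control replicate 2 (-0.043), PC sg2 replicate 2 (-0.055) or PC sg5 replicate 1 (-0.060). Of its exon length, 34.4% is shared with another annotated gene. Ctsk, the collagen-degrading cathepsin of osteoclasts and fibroblasts, had 1458 and 1494 under the control guide, 1413 and 1466 under PC sg2 and 1519 and 1505 under PC sg5, groups that overlapped and had the same mean (log2 fold change -0.00045 ± 0.051 (SE)). Ctsz, a carboxypeptidase, likewise overlapped at -0.00018 ± 0.035 (SE). It averaged 4181 ± 57 (SD, n = 2) normalised counts under the control guide and 4180.4 ± 52.4 (SD, n = 4) under the PC guides.

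The 7 glycosidases divided into 3 higher, 3 lower and 1 not called. Gla, which removes galactose from glycolipids, had 2811 and 2812 normalised counts under the control guide, 4225 and 3980.3 under PC sg2 and 4087 and 4183 under PC sg5, a log2 fold change of 0.55 ± 0.038 (SE). Hexa, the alpha chain of the hexosaminidase that breaks down a ganglioside, rose by 0.45 ± 0.028 (SE), with 12.8% of its exon length shared with another gene. It averaged 7369.6 ± 94.6 (SD, n = 2) normalised counts under the control guide and 10035 ± 76.6 (SD, n = 4) under the PC guides. Gaa, which frees glucose from glycogen, rose by 0.12 ± 0.024 (SE), or by 0.22 with quantile normalisation. It averaged 17324 ± 73.6 (SD, n = 2) normalised counts under the control guide and 18806 ± 313 (SD, n = 4) under the PC guides. Neu1, the sialidase, was at 0.099 ± 0.044 (SE) and just missed the threshold (adjusted p = 0.0515), with 2208 and 2159.5 under the control guide, 2321 and 2231 under PC sg2 and 2363 and 2445 under PC sg5, all 4 above both controls.

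The 3 glycosidases that fell take part in the breakdown of glycosaminoglycans, as background knowledge, but so does Hexa, which rose. Naglu, needed for heparan sulfate, had 1930.1 and 1914 normalised counts under the control guide, 1355 and 1263 under PC sg2 and 1174 and 1216 under PC sg5, a log2 fold change of -0.62 ± 0.053 (SE). Glb1, the beta-galactosidase, had 2091 and 2201 under the control guide, 1538 and 1483 under PC sg2 and 1501 and 1509 under PC sg5, a log2 fold change of -0.51 ± 0.049 (SE). Gusb, the beta-glucuronidase, had 3777 and 3938 under the control guide, 3167 and 3138 under PC sg2 and 3240.2 and 3309 under PC sg5, a log2 fold change of -0.26 ± 0.038 (SE). The groups were apart in all 3, and the PC libraries of Glb1 differed by less than its 2 controls did.

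Of the 4 genes for lipid breakdown and transfer, 3 fell. Lipa, the acid lipase that splits cholesteryl esters and triglycerides, had 6555 and 6768 normalised counts under the control guide, 3821 and 3799 under PC sg2 and 3691 and 3717 under PC sg5, a log2 fold change of -0.83 ± 0.034 (SE) (adjusted p = 3.32e-15). The PC libraries held 56.4% of the control level and did not overlap with the controls. Lipa (ENSMUSG00000024781) lies on GRCm38 chromosome 19, 34492318 to 34527474, on the minus strand. Npc2, which hands cholesterol to the Npc1 protein, had 26018 and 26400.2 under the control guide, 19939.8 and 19205 under PC sg2 and 20621 and 19821 under PC sg5, a log2 fold change of -0.40 ± 0.025 (SE), which was -0.27 with quantile normalisation. The 2 partners of cholesterol export thus moved in opposite directions. Psap, the precursor of the saposins that lift lipids to their enzymes, had 50947 and 52379 under the control guide, 45406 and 44506 under PC sg2 and 46659 and 46914 under PC sg5, a log2 fold change of -0.17 ± 0.021 (SE), and that call was lost with quantile normalisation at -0.013 (adjusted p = 0.573). Asah1, the acid ceramidase, overlapped between groups at 0.018 ± 0.029 (SE). It averaged 10803 ± 362 (SD, n = 2) normalised counts under the control guide and 10934 ± 209 (SD, n = 4) under the PC guides.

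In level per kb, the set spanned a wide range in the controls. Psap was highest at 18828 normalised counts per kb, followed by Lamp1 at 16248, and Ctsf was lowest at 75.6. Among the pump genes, Atp6v1g1 was highest at 5009.7 per kb and Atp6v0c lowest at 425, with the uncertainty over its pseudogene. Subunits of 1 complex therefore differed widely in counts per kb of merged exon, a measure that depends on the annotated exon length as well as on RNA level. By this measure Atp6v1c1, at 793 per kb in the controls and 1706 in the PC libraries, was not among the most abundant.

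The promoters of these genes were searched for the element that TFEB and TFE3 bind. The motifs were CACGTG, the common E-box, and TCACGTGA, its longer form, which contains the first. Both read the same on the 2 strands. RefSeq promoters (GRCm38.p6), 250 bases before to 50 after a start site, matched 32 of the 40 genes with 36 promoters. CACGTG was found in 14 of the 36, or 38.9%, against 7.15% of all 32851 promoters in the table, and TCACGTGA in 7, or 19.4%, against 0.974%. The stretches below show the motif in capitals, 5′ to 3′ on the strand of the gene, for the 7 genes with the longer form, the first 3 being pump subunits.

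Atp6v0d1, chr8:105566050-105566090, minus strand: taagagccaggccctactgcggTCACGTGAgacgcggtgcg
Atp6v0e, chr17:26676376-26676410, plus strand: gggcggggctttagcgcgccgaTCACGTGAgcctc
Atp6v1a, chr16:44139362-44139413, minus strand: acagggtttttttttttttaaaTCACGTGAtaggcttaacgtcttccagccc
Ctsa, chr2:164833738-164833787, plus strand: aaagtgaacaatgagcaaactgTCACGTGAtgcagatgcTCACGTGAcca
Ctsd, chr7:142387897-142387948, minus strand: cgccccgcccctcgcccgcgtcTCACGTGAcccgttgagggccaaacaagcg
Gla, chrX:134601171-134601255, minus strand: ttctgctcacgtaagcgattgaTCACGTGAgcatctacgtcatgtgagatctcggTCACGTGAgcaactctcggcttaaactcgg
Mcoln1, chr8:3500451-3500502, plus strand: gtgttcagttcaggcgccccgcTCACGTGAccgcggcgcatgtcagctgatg

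In Atp6v0d1, Atp6v0e and Ctsa the element lies at the start site, within 13 bases of it. For Ctsa this holds for 1 promoter only, and another, at chr2:164832622-164832921, holds neither form. In Mcoln1 it begins 46 bases before, and in Gla there are 2 copies, the farther one at -228, counted in bases from the start site. The short form is shown for Lamp1 and Atp6v0b, which rose and hold 4 and 2 copies, and for Glb1, Naglu and Ctsf, which fell and hold 1 copy each. Ctsl and Gaa, which are not shown, rose and also hold 1 copy each.

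Lamp1, chr8:13159078-13159173, plus strand: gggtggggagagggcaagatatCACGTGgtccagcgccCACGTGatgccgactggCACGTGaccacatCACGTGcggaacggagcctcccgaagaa
Atp6v0b, chr4:117887320-117887387, minus strand: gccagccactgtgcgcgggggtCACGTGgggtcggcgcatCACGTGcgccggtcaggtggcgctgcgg
Glb1, chr9:114401008-114401057, plus strand: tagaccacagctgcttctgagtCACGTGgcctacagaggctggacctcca
Naglu, chr11:101069999-101070048, plus strand: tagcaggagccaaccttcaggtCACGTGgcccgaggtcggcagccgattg
Ctsf, chr19:4855064-4855113, plus strand: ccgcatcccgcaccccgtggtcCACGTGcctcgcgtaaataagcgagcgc

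Genes with and without the element were found among those that rose and those that fell. Of the 14 genes with CACGTG, 9 rose, 4 fell and 1 was not called, at a median log2 fold change of 0.19. Of the 18 genes with a promoter that lacked it, 9 rose, 6 fell and 3 were not called, at a median of 0.18. For TCACGTGA the counts were 5 higher, 1 lower and 1 not called (median 0.20) against 13, 9 and 3 of 25 (median 0.12). These counts and medians leave out the 8 genes with no entry, Atp6v1c1, Atp6v1h, Atp6v1b2, Atp6v0a2, Atp6v1g1, Npc1, Ctsb and Asah1, of which all but Asah1 rose. Atp6v1d and Atp6ap2 rose without either form in this window. A match is a string of letters and not a shown binding site, and a window without a match says nothing about the factor.

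Of the 4 genes for this family of factors, 2 fell and 1 was not called. Tfe3 fell, with 4852 and 4823 normalised counts under the control guide, 4199 and 4298 under PC sg2 and 4426 and 4217 under PC sg5, a log2 fold change of -0.18 ± 0.035 (SE). Mitf fell as well, at -0.36 ± 0.092 (SE). Tfeb had 349 and 338 under the control guide, 309 and 326 under PC sg2 and 323 and 357 under PC sg5, overlapping groups with a log2 fold change of -0.064 ± 0.10 (SE) that was not called and came to 0.10 with quantile normalisation. Tfec is not analysed here. These are levels of RNA, and the place of the proteins in the cell, by which these factors are chiefly controlled, was not measured.

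Other genes of the compartment were counted from lists drawn up by role. Of 14 genes for V-ATPase assembly and regulation 8 rose, 2 fell and 4 were not called (median 0.26). The 3 with the smallest p were Tmem199, an assembly factor, at 0.95, Dmxl1, part of the complex that rejoins V1 to V0, at 0.55, and Oxr1, of the family of pump-binding TLDc proteins, at 0.38. Of 25 other lysosomal membrane proteins 15 rose, 6 fell and 4 were not called (median 0.28), those with the smallest p being Spns1, a lysophospholipid exporter, at 0.82, Laptm4a at -0.43 and the channel Tpcn2 at -0.99. Of 31 other hydrolases and activators 6 rose, 18 fell and 7 were not called (median -0.23), those with the smallest p being the sulfatases Arsa at -0.65 and Arsb at -0.997, and the carboxypeptidase Scpep1 at 0.43. Of 12 genes for mannose 6-phosphate tagging and sorting 7 rose and 5 fell (median 0.29), and the 3 with the smallest p were the retromer subunits Vps26a, Vps29 and Vps35 at 0.84, 0.61 and 0.44. Of all genes tested, 34.3% rose and 33.6% fell. The share that rose was above this for the assembly genes (57.1%), the other membrane proteins (15 of 25) and the sorting genes (58.3%). It was below this for the hydrolases outside the 40 genes (19.4%). The share that fell was above that of all genes for these hydrolases (58.1%) and the sorting genes (41.7%). It was below for the assembly genes and the other membrane proteins. All 12 sorting genes were called, against 67.9% of all genes tested.

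**Figure D5:**
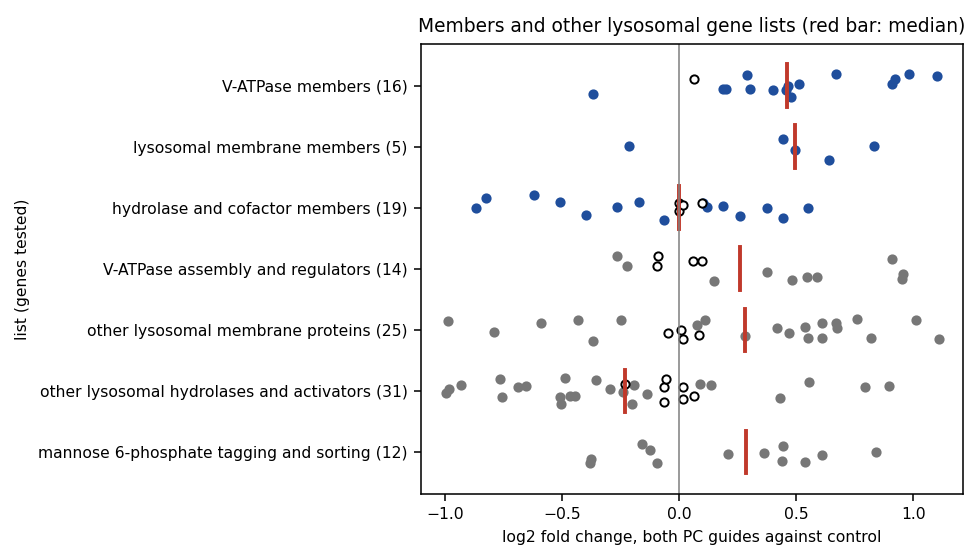
Each point is a gene, placed by its log2 fold change for both PC guides against control, filled if called and open if not, with blue for the 40 genes and grey for the other lists. Red bars mark medians, 0.46 for the V-ATPase genes among the 40. The membrane proteins have medians of 0.50 among the 40 genes and 0.28 outside them, against -0.00018 and -0.23 for the hydrolases. The 4 other V-ATPase subunit genes tested, 1 higher and 3 lower, are not drawn.

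The 2 PC guides share their control libraries, so their separate comparisons are not independent. PC sg2 against control called 25 of the 40 genes higher and 10 lower, and PC sg5 against control called 27 higher and 9 lower. Over all genes tested, PC sg2 called 64.5% (32.9% higher, 31.6% lower) and PC sg5 called 64.5% (32.6% higher, 31.8% lower). Atp6v1c1 was at 1.05 and 1.16 with the respective guides, Atp6v0a1 at -0.33 and -0.40, Lipa at -0.81 and -0.85, and Npc1 at 0.87 and 0.80. The direct comparison of PC sg5 with PC sg2 called 0 of the 40 genes with limma, 4 being at an unadjusted p under 0.05. With edgeR on the recovered reads that was 0 and 5, and with DESeq2 0 and 3. Over all genes tested 0.242% were called in this comparison, 0.139% higher and 0.103% lower. The 4 genes were Atp6v1c1 at 0.11, Atp6v0b at 0.087, Psap at 0.058 and Naglu at -0.13, named here after their values were seen, and the smallest adjusted p was 0.277. Over the 40 genes the log2 difference between the guides ran from -0.13 to 0.11, while Pcx itself differed by 1.05. A p-value that misses the threshold does not show that the guides act alike.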

How the data were processed

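Poly-A+ RNA from 6 libraries was sequenced after preparation with the NEBNext Ultra kit, per the labels, which leaves reads without strand. Tools named in the submitters' processing notes are bcl2fastq 2.17, Trimmomatic, STAR, featureCounts and DESeq2, with the build GRCm38, while for settings, annotation and strand use the sources used here say nothing. As signal, the authors deposited normalised counts, that is reads divided by a library's size factor. In every library 100% of values were whole multiples (tolerance 0.01) of 1 step, so whole reads were recovered, and no gene had fewer than 61 in total. GENCODE M21 gave a symbol to 16498 of 16540 identifiers and the exon lengths.

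The main test was limma 3.58.1 (R 4.3.3) on log2(normalised count + 1), with 3 groups in 1 model, an intensity trend, two-sided tests, Benjamini-Hochberg adjustment and a threshold of 0.05. A gene was kept when 2 or more libraries had 10 or more normalised counts (16526, with 14 removed). Fold changes are on this log2(value + 1) scale, which understates changes of low genes. The 3 residual degrees of freedom were joined by a median of 17.3 prior ones. On recovered reads, edgeR 4.0.16 (quasi-likelihood test) called 5695 genes higher and 5729 lower with both guides, where limma called 5674 and 5548, and DESeq2 1.42.0 was run as well. Other alternatives were pseudocounts of 0.5 and 5, 2 filters, 2 scalings, no trend, a replicate block and each library left out. The model code was tested on simulated data.

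The 41 genes and all lists were chosen with earlier results of these data known, so no test was made over a list. Each of the 41 with a row is named. Values in every library are required for the 4 largest called rises and falls among pump and among lysosomal genes and are given for others as well. Outside them, Pcx, the TFEB family and the 3 genes with the smallest p per list are named, and any further gene was named after its values were seen.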

Additional observations from a re-analysis of the deposited data

How the results depend on the processing

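The 35 called genes of the 40 kept their call and direction with edgeR, DESeq2, either pseudocount, either filter, the replicate block, and without control replicate 1, PC sg2 replicate 1 or PC sg5 replicate 2. Quantile normalisation kept 32 of 35 (Lamp2, Psap and Ctsd lost), no intensity trend 33 (Ctsb and Ctsd lost), and the other 4 settings 34 (Ctsd lost). Neu1 was called among genes averaging 50 or more normalised counts, with scaling that left out the 50 most abundant genes, with the replicate block, and without PC sg2 replicate 2 or PC sg5 replicate 1, and Atp6v0e with that scaling only (0.11). Signs turned for Ctsd (0.024), Ctsk (0.0026) and Tfeb (0.10) with quantile normalisation, and for Ctsk (0.044) and Ctsz (0.044) with scaling that left out the 50 most abundant genes. With 1 library left out, where the lone sample is assumed to vary like the other groups, Ctsk ran from -0.018 to 0.017, Ctsz from -0.014 to 0.014 and Asah1 from -0.017 to 0.052. Counts of the 40 genes called in each direction stayed within 1.5 times. The quantile setting shifted the median of all genes most, to 0.047.

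The all-gene counts of PC sg5 against PC sg2, 23 higher and 17 lower, were the least stable. Higher calls numbered 39 with edgeR, 36 with a pseudocount of 5, 35 with quantile normalisation, 42 without the 50 most abundant genes and 0 without an intensity trend, and ran from 3 (without PC sg2 replicate 2) to 91 (without PC sg5 replicate 1). Lower calls numbered 29 with edgeR, 57 with DESeq2, 29 with a pseudocount of 5, 31 among genes averaging 50 or more and 0 without an intensity trend, and ran from 5 (without PC sg2 replicate 1) to 127 (without PC sg5 replicate 1). With the replicate block they were 81 higher and 79 lower. Same-numbered libraries correlated in their deviations at -0.022, 0.025 and 0.031 over all genes tested. A single value over all genes cannot show whether such libraries share more than a number. The cause of these moves was not tested. PC sg5 replicate 2, at 22895172 reads, limits the least abundant genes most.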

Other observations

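Among the genes examined, a group around the breakdown of glycosaminoglycans was put together after its values were seen, from 4 of the 40 genes and 9 others, so its direction is a description of the choice and no test was made of it. Of these 13 genes 9 fell, 2 rose and 2 were not called with both PC guides, at a median log2 fold change of -0.49. The share that fell was 69.2% and the share that rose 15.4%, beside 33.6% and 34.3% of all genes tested. Arsb, a sulfatase acting on dermatan and chondroitin sulfate, had 3150.2 and 3342 normalised counts under the control guide, 1641 and 1636 under PC sg2 and 1669 and 1558 under PC sg5. Galns, another sulfatase of this route, went from 983 and 1012 normalised counts under the control guide to 557 and 597 under PC sg2 and 630.2 and 564 under PC sg5, a log2 fold change of -0.77 ± 0.075 (SE). Ids and Idua, which act early on heparan and dermatan sulfate, were at -0.49 ± 0.034 (SE) and -0.50 ± 0.079 (SE). The 2 that rose were Hexa and the acetyltransferase gene Hgsnat (0.11 ± 0.048 (SE)). Of the exon length of Arsb, 39.9% is shared with other annotated genes.

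A pair of genes known from neuronal ceroid lipofuscinosis, a group of lysosomal storage diseases, rose among the other lists and were named after their values were seen. Mfsd8, a membrane protein, went from 439 and 467 normalised counts under the control guide to 997 and 986 under PC sg2 and 1027 and 906 under PC sg5, a log2 fold change of 1.11 ± 0.073 (SE). Cln3 was at 1.012 ± 0.11 (SE), while Ppt1, of the same group, was not called at -0.065 ± 0.036 (SE).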
